A study of Homo sapiens with 4 samples.

Results

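SGK1 and ZBTB16 are genes that several steroid hormone receptors are known to switch on, and both were followed across 4 expression arrays of LNCaP cells, a line of human prostate cancer cells that respond to androgen. They were taken by gene symbol from the deposited table, where 1 probe set carried each symbol. They are 2 of the 2548 genes that could be named here, by the symbol in the table or by RefSeq accession. All cells were LNCaP cells grown with 10% fetal bovine serum, moved for 3 days to medium without phenol red that held 2.5% charcoal-stripped serum, and transfected with an siRNA 48 h before hormone was added. The 4 groups, of 1 array each, were siControl with ethanol vehicle, siControl with 10 nM dihydrotestosterone (DHT, the potent natural androgen), siPOTEF-AS1 with vehicle and siPOTEF-AS1 with 10 nM DHT. The arrays of the first siRNA form the control arm here and those of the other the knockdown arm. The siPOTEF-AS1 reagent targets a long noncoding RNA antisense to POTEF, and the design asked which androgen-dependent changes followed its knockdown. How long the hormone was present is not stated in the labels.

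The receptors of several steroid hormones are ligand-activated transcription factors that recognise closely related DNA elements, so that a set of genes answers to more than 1 of these hormones. SGK1 encodes the serum- and glucocorticoid-regulated kinase, a serine/threonine kinase that is related to AKT, is activated downstream of phosphoinositide 3-kinase and regulates ion channels, transporters and FOXO transcription factors. ZBTB16, also known as PLZF, encodes a zinc finger protein with a BTB domain that binds DNA and recruits corepressors and histone deacetylases. LNCaP cells are a tumour line, which limits them as a model of normal prostate.

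The values are log2 signals, made by the authors with the RMA method, and each is that of a single array. Without replicate arrays a difference between 2 of them had no test, and it was read beside that of the other arm. The median signal over all 26722 annotated probe sets and 4 arrays, 6.82, served as a brightness floor. A signal under it was not shown to lie above background. The 4 arrays correlated with Pearson r from 0.988 to 0.995 over all 33297 probe sets. The number of probe sets named POTEF-AS1 was 0, so that the knockdown itself was not checked here. None of the 12 luminal prostate markers listed was measured under its name, nor was any of 6 stromal, 3 endothelial and 4 leukocyte markers. The basal keratin genes KRT5 and KRT15, 2 of 5 listed basal markers, were below the floor on all 4 arrays. The cell type was therefore taken from the labels.

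The SGK1 probe set (ENSG00000118515; chromosome 6, 134490384 to 134639196, minus strand, GRCh37) was annotated with a protein-coding transcript that spans 148813 bases. The RefSeq promoter table (GRCh38.p14) lists 3 starts for SGK1, and the array signal cannot tell which of them gave the RNA. The annotated transcript has coordinates of another build and was not matched to any of these starts. The windows printed here are therefore not shown to be those of that transcript. The upstream 250 bases of the starts were searched because they are the gene's own regulatory windows and because SGK1 was higher with DHT. They are printed only for the starts whose window held the letters TATAA, a search added after seeing the data. The windows at chr6:134177862-134178111 and chr6:134174867-134175116, minus strand, are given 5′ to 3′ on the strand of the gene, with each TATAA in capitals.
SGK1 middle start: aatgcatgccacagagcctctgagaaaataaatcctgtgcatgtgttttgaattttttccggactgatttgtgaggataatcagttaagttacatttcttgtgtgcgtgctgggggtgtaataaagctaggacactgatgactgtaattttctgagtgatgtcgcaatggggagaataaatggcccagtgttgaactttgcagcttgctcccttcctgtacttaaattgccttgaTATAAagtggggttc
SGK1 downstream start: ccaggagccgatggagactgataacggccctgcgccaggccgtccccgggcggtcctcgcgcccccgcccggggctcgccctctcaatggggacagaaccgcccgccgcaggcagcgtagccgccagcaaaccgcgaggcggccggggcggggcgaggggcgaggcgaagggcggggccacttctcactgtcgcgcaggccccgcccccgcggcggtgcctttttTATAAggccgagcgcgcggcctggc
The letters TATAA, the core of a TATA box, were searched on the strand of the gene and occurred 1 time in each of these windows, with the first base 15 and 25 bases upstream of the start. They did not occur in the window of the remaining start at chr6:134318113-134318362. Of 35116 windows of the same length, 13.6% held TATAA. The windows differed in base composition, with 33.6%, 41.6% and 76% G and C from the most upstream start to the most downstream, against a median of 58% over all windows. The 6-base unit of steroid receptor elements, AGAACA on either strand and so also TGTTCT, occurred in 0 of the 3 SGK1 windows and in 12.4% of all windows. The full element of both units spaced by 3 bases, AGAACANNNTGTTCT, occurred in none of the 3 and in 0.00285% of all. The full element contains the unit. With the 50 bases after each start included, the unit occurred 1 time at the middle start, after the start itself, and 14.8% of all such windows held it. These counts concern only the letters in these windows.

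SGK1 was dim without androgen and clearly brighter with it, in both siRNA arms. In the control arm its log2 signal was 5.01 with vehicle and 8.38 with DHT, and in the knockdown arm it was 5.07 with vehicle and 7.97 with DHT. Both DHT arrays were high and both vehicle arrays low, and the lowest DHT signal exceeded the highest vehicle signal by 2.89. Relative to the brightness floor the vehicle signals stood at -1.81 and -1.75 and the DHT signals at 1.56 and 1.15. In the control arm 24.3% of annotated probe sets were dimmer than SGK1 with vehicle and 70.3% with DHT. The DHT difference was 3.37 on the log2 scale in the control arm and 2.89 in the knockdown arm, a mean of 3.13 ± 0.24 over 2 arms, where the error is the distance of either arm from the mean. No fold is given, because the vehicle level was not shown to exceed background, and for the same reason the size of the difference is that of the deposited signals only.

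ZBTB16 (ENSG00000109906; chromosome 11, 113930315 to 114121398, plus strand, GRCh37) was bright on every array and brighter still with DHT. Its probe set was annotated with a protein-coding transcript spanning 191084 bases. Its log2 signal was 9.09 with vehicle and 10.24 with DHT in the control arm, and 9.16 with vehicle and 10.60 with DHT in the knockdown arm. Here too both DHT arrays were above both vehicle arrays, with a gap of 1.08 between the nearest of them. The signals lay from 2.28 to 3.79 above the brightness floor. The DHT difference was 1.14 in the control arm, or 2.21-fold, and 1.45 in the knockdown arm, or 2.72-fold. The mean was 1.30 ± 0.15 on the log2 scale, or 2.45-fold. The plot of signals by hormone shows the lines of SGK1 crossing the floor and those of ZBTB16 above it throughout.

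**Figure D1:**
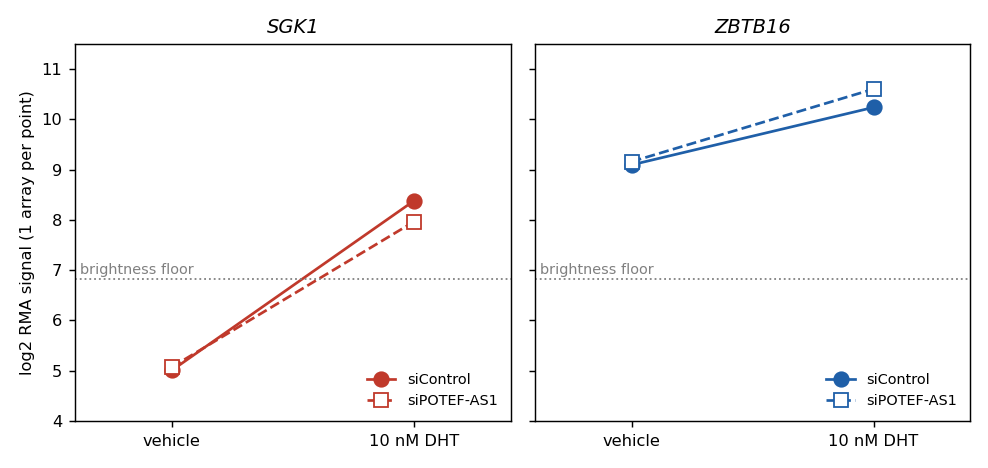
Log2 RMA signal (vertical axis) of SGK1 and ZBTB16 in vehicle and 10 nM DHT (horizontal axis), with 1 array per point, filled circles for siControl and open squares for siPOTEF-AS1; the dotted line is the brightness floor of 6.82. SGK1 goes from 5.01 and 5.07 to 8.38 and 7.97, and ZBTB16 from 9.09 and 9.16 to 10.24 and 10.60.

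Both genes passed the 2-fold threshold in both arms. Among all 26722 annotated probe sets 0.921% reached 2-fold higher and 0.445% reached 2-fold lower with DHT in the control arm. In the knockdown arm 0.917% were higher and 0.76% lower. In both arms together 0.659%, or 176 probe sets, were higher and 0.262% lower. Ordered by the DHT difference, ZBTB16 was 197th from the highest of the annotated probe sets in the control arm and 91st in the knockdown arm. No rank is given for SGK1, whose vehicle signals were under the floor. The median DHT difference of all annotated probe sets was -0.01 in the control arm and 0.01 in the knockdown arm, with standard deviations of 0.31 and 0.36 over probe sets.

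**Figure D2:**
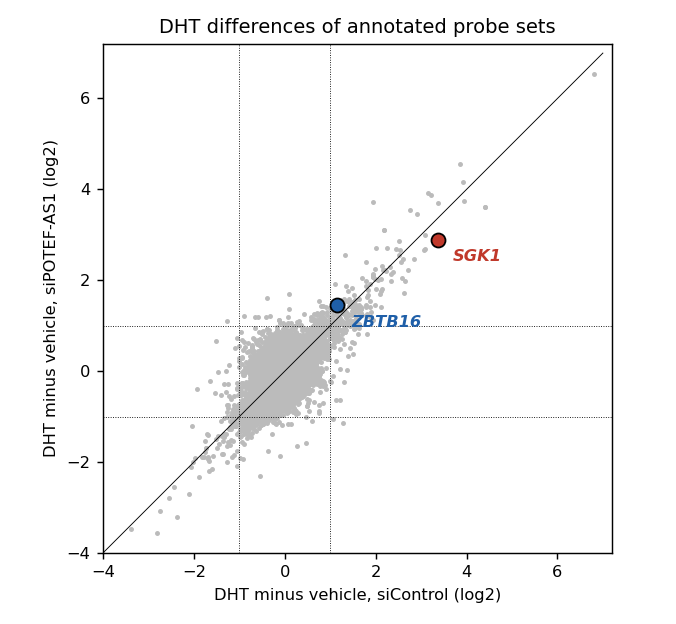
DHT minus vehicle difference on the log2 scale in the control arm (horizontal axis) and the knockdown arm (vertical axis) for 26722 annotated probe sets (grey), SGK1 and ZBTB16; dotted lines mark 2-fold and the solid line equal responses. SGK1, at 3.37 and 2.89, is below the line and ZBTB16, at 1.14 and 1.45, above it.

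A linear model of hormone and siRNA over the 4 arrays, fitted with limma to all annotated probe sets, assumed the same DHT effect in both arms and had 1 residual degree of freedom per probe set. It gave SGK1 a DHT effect of 3.13 with a standard error of 0.15 and a limma adjusted p of 0.00203. ZBTB16 had an effect of 1.30 with a standard error of 0.12 and a limma adjusted p of 0.0106. With DHT the model called 1.7% of the probe sets higher and 1.36% lower. Fitted to all 33297 probe sets of the table, the adjusted p of ZBTB16 was 0.0743, above the threshold of 0.05, and that of SGK1 0.034. Both genes were chosen with their DHT responses known, so that these p-values are not independent evidence.

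Knockdown differences were small in vehicle and went in opposite directions for the 2 genes in DHT. In vehicle SGK1 was 0.07 and ZBTB16 0.06 higher on the log2 scale in the knockdown arm. Under the other scalings these values ranged from 0.07 to 0.13 and from 0.02 to 0.13. Among annotated probe sets 70.6% and 71.3% differed by at least as much. In DHT SGK1 was lower in the knockdown arm, with a difference of -0.42, and ZBTB16 was higher, with a difference of 0.36. Differences at least that large in size were found in 4.61% and 7.01% of annotated probe sets. Neither gene reached 2-fold. In vehicle 0.0599% of annotated probe sets were 2-fold higher with knockdown and 0.0674% lower, whereas with DHT 0.0936% were higher and 0.0486% lower. In the linear model the knockdown effect was -0.17 with a standard error of 0.15 for SGK1 and 0.21 with a standard error of 0.12 for ZBTB16, each with a limma adjusted p of 1. The model called 0 of 26722 probe sets for knockdown, and 1115 had an unadjusted p under 0.05.

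The DHT response of SGK1 was thus smaller in the knockdown arm than in the control arm by a log2 difference of -0.48, and that of ZBTB16 was larger by 0.30. Each value rests on 4 single arrays with no residual degree of freedom and was not tested. Response differences of at least this size were found in 10.2% of annotated probe sets for SGK1 and in 26.8% for ZBTB16, and 0.378% and 0.213% were 2-fold higher and lower. Among the 176 probe sets 2-fold higher with DHT in both arms, the response difference had a median of -0.09 and quartiles of -0.28 and 0.15. Of these, 12 had a lower value than SGK1 and 22 a higher value than ZBTB16. The response was smaller in the knockdown arm in 105 of the 176. Over all annotated probe sets the response difference had a median of -0.0011 and a standard deviation of 0.30. Whether the 176 differ from all annotated probe sets in this was not tested. By mean DHT difference ZBTB16 was 126th of the 176. In the control arm with vehicle the median signal of the 176 was 8.33, and 43 of them, SGK1 included, were below the floor on both vehicle arrays.

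**Figure D3:**
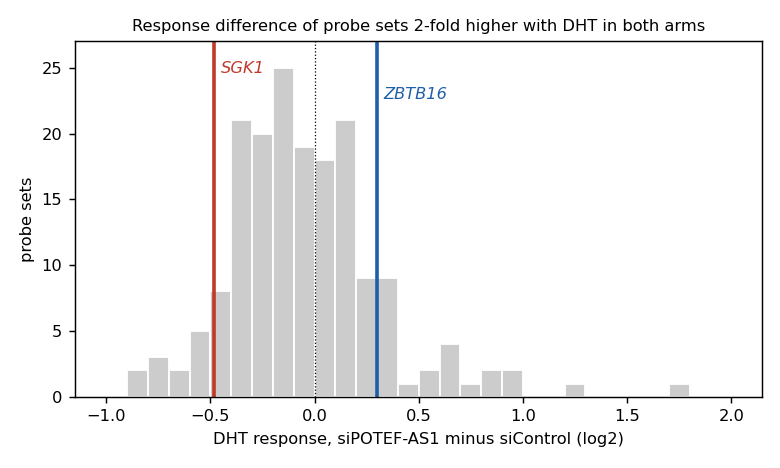
Number of probe sets (vertical axis) by the DHT response in the knockdown arm minus that in the control arm on the log2 scale (horizontal axis), for the 176 annotated probe sets at least 2-fold higher with DHT in both arms. SGK1, at -0.48, is in the lower tail and ZBTB16, at 0.30, in the upper part, both within the range from -0.89 to 1.78.

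The genes whose profile over the 4 arrays was most like that of each gene were ordered by the root mean square distance between log2 profiles, each centred on its own mean, among 1316 other named probe sets that reached the floor on at least 1 array. Nearest to SGK1 were CENPN, a centromere protein gene, at 0.31, and IGF1R, the insulin-like growth factor receptor gene, at 0.35. ST6GALNAC1, a sialyltransferase gene that like SGK1 was below the floor in vehicle, at 6.06 and 5.81, followed at 0.38, and then TARP, a T cell receptor gamma locus transcript, at 0.47, by way of a pair of probe sets with identical values. The median distance to SGK1 was 1.59. Both SGK1 and ST6GALNAC1 were among the probe sets compared only through their DHT arrays, so that their closeness is a description and no support for a likeness. CENPN differed by 2.51 with DHT in the control arm and by 2.86 in the knockdown arm, and IGF1R by 2.55 and 2.40. Of these neighbours in profile, IGF1R shared with SGK1 a smaller response in the knockdown arm, with a response difference of -0.15. CENPN, ST6GALNAC1 and TARP had response differences of 0.36, 0.68 and 0.92.

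Nearest to ZBTB16 were 3 probe sets of the POTE family, primate ankyrin repeat genes expressed in prostate. POTEG was at a distance of 0.03, POTEI at 0.09 and POTEF at 0.15. KLF5, a Krüppel-like transcription factor gene, and NR4A1, an orphan nuclear receptor gene, were each at 0.19, and the median distance to ZBTB16 was 0.68. POTEG differed by 1.07 with DHT in the control arm and by 1.46 in the knockdown arm, and with knockdown by 0.03 in vehicle and 0.42 in DHT. These are within 0.1 of the ZBTB16 values in each comparison. In vehicle all 3 POTE genes were below the floor, unlike ZBTB16, with signals of 5.91 and 5.93 for POTEG, 6.48 and 6.66 for POTEI and 6.30 and 6.64 for POTEF. They were among the probe sets compared only through their DHT arrays, so that their closeness to a profile that is high with DHT is a description and no support for a likeness. Probes of near-identical POTE copies may read each other's transcripts. KLF5 differed by 1.15 and 0.93 with DHT, and NR4A1 by 1.43 and 1.12, so that both responded less in the knockdown arm. SGK1 and ZBTB16 were 0.96 apart from each other.

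**Figure D4:**
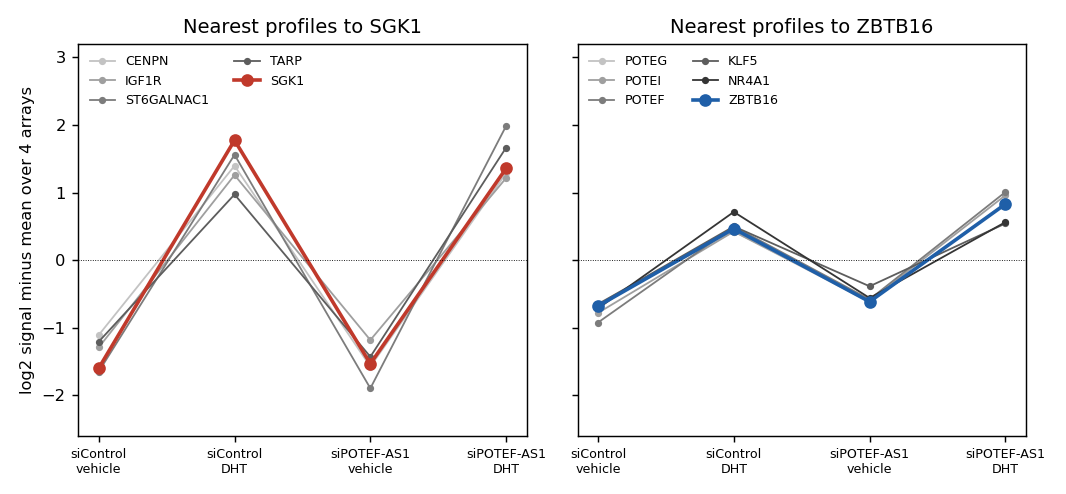
Log2 signal minus the gene's mean over the 4 arrays (vertical axis) on each array (horizontal axis) for SGK1 and ZBTB16 (coloured) and the nearest named profiles (grey); the pair of TARP probe sets is 1 line. The POTEG line, at a distance of 0.03, follows that of ZBTB16, and the nearest line to SGK1, that of CENPN, is 0.31 from it.

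Few other genes of the pathways around SGK1 and ZBTB16 were measured under their names, and most of those did not reach 2-fold with DHT. Of 29 listed genes upstream and downstream of SGK1, 1 was measured. This was FOXO3, a transcription factor gene whose protein SGK1 phosphorylates, with differences of 0.38 and 0.06 in the control and knockdown arms and a limma adjusted p of 0.463. Of 22 partners and targets of ZBTB16, 2 were measured. SIN3A, the gene of a corepressor scaffold, differed by 0.06 and -0.01. ID2, which encodes an inhibitor of basic helix-loop-helix factors, had a log2 signal of 7.13 with vehicle and 8.77 with DHT in the control arm, and of 8.01 and 9.05 in the knockdown arm. It was 1.63 and 1.04 higher with DHT, with a limma adjusted p of 0.021, and like SGK1 it responded less in the knockdown arm, by a difference of -0.59. Its vehicle signals, unlike those of SGK1, differed by 0.88 between the siRNAs.

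Of other symbols that start with ZBTB, 4 were measured, and 0 of the 4 were 2-fold apart. Over all annotated probe sets 0.921% and 0.917% were 2-fold higher with DHT in the control and knockdown arms, and 0.445% and 0.76% lower. A count of 0 among 4 is usual at these shares. Of the 4 symbols, 3 encode BTB zinc finger proteins like ZBTB16 and were above the floor. ZBTB6 differed by 0.25 and 0.03 with DHT, ZBTB46 by -0.12 and -0.26 and ZBTB48 by -0.03 and 0.06. The fourth, ZBTB8OSP1, a pseudogene below the floor, differed by -0.54 and -0.00251. The list median was -0.07 and 0.01, beside -0.01 and 0.01 over all annotated probe sets.

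Of 14 steroid receptors and chaperones, 4 were measured. The progesterone receptor gene PGR had signals from 4.09 to 4.45 and the brighter of the estrogen receptor gene ESR1 probe sets from 5.53 to 5.91, all below the floor. STIP1, a co-chaperone gene of HSP90, differed by -0.13 and 0.07 with DHT, and DNAJA1, a co-chaperone gene of HSP70, by -0.05 and 0.02.

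Of 31 other genes known to respond to both glucocorticoid and androgen or progesterone, 5 were measured and 0 were 2-fold apart in either arm. At the shares over all annotated probe sets given above, a count of 0 among 5 is usual. CEBPD, a transcription factor gene of the C/EBP family, had log2 signals of 9.11 and 9.09 in vehicle and 9.44 and 9.48 in DHT, with siControl first. Its DHT differences of 0.33 and 0.39 were alike in both arms, with a limma adjusted p of 0.171. MAOA, the monoamine oxidase A gene, differed by 0.10 and 0.23. SORBS2 and RGS2 were below the floor on every array, and FOXO3 was named above. The list median was 0.33 and 0.22, beside -0.01 and 0.01 over all annotated probe sets. It rests on 5 genes, and 0.22 is the value of SORBS2, which was below the floor. Of 30 listed androgen-induced genes, 5 were measured and 3 of them, CENPN, IGF1R and LRIG1, were 2-fold higher in both arms. Their limma adjusted p-values were from 0.00203 to 0.00417. Over all annotated probe sets 0.659% were 2-fold higher in both arms. This list was chosen with earlier results of these data known, so that its count, p-values and median are a description and no support. The kallikrein gene KLK15 differed by 0.31 and 0.04, and ADAM7 was below the floor. LRIG1, whose product restrains growth factor receptors, was higher by 1.82 and 1.62. The list median was 1.82 and 1.62, beside -0.01 and 0.01 over all annotated probe sets.

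**Figure D5:**
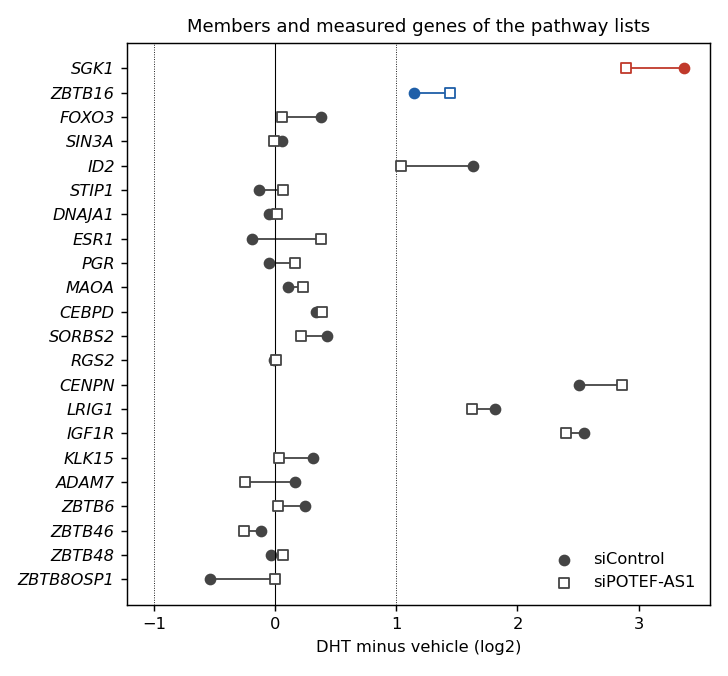
DHT minus vehicle difference on the log2 scale (horizontal axis) of SGK1, ZBTB16 and the measured genes of the lists around them (vertical axis), filled circles for siControl and open squares for siPOTEF-AS1, 1 pair of arrays per point; dotted lines mark 2-fold. SGK1, ZBTB16, ID2, CENPN, LRIG1 and IGF1R are past 2-fold in both arms and the remaining genes in neither.

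The functional classes that the table gives to each gene were described in the same way. Over all annotated probe sets 0.921% were 2-fold higher and 0.445% lower with DHT in the control arm, and 0.917% and 0.76% in the knockdown arm. The model called 1.7% higher and 1.36% lower. At these shares a count of 0 is usual in the smaller classes, so it does not set SGK1 or ZBTB16 apart from them. The class of protein serine/threonine kinase activity, to which SGK1 belongs, held 25 other probe sets, of which 18 reached the floor, and 0 were 2-fold apart with DHT in either arm. Its median DHT difference was -0.01 and 0.06 in the control and knockdown arms. The sodium ion transport class, also of SGK1, held 4 others, again with 0 at 2-fold. The transcriptional repressor complex class of ZBTB16 held 6 others with 0 at 2-fold. Of these JUN, an AP-1 subunit gene, was lower by the model, with differences of -0.76 and -0.65 and a limma adjusted p of 0.0372. The PML body class held 9 others with 0 at 2-fold. The class of negative regulation of transcription, also of ZBTB16, held 36 others, of which the model called 2 lower. These were JUN and RFX3, a regulatory factor X gene with differences of -1.28 and -1.64. SGK1 and ZBTB16 share the apoptotic process class, which held 81 other probe sets. Of these 2 were 2-fold higher in each arm, BCAP29 and NR4A1 in the control arm and NR4A1 and TNFAIP3 in the knockdown arm. TNFSF15, a tumour necrosis factor family ligand gene, was the 1 probe set at 2-fold lower, with differences of -1.13 and -0.91. The class median was 0.02 and 0.08.

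Around SGK1 and ZBTB16 no other probe set with coordinates was 2-fold apart with DHT. With so few compared, a count of 0 is usual at the shares over all annotated probe sets. Within the span of SGK1 the table placed 3 other probe sets, all of small RNA genes, and 0 were 2-fold apart with DHT. RNA5SP218, a 5S ribosomal RNA pseudogene on the opposite strand (chromosome 6, 134578173 to 134578281, plus strand, GRCh37), differed by -0.02 and 0.69. A miscellaneous RNA gene, ENSG00000201309, differed by 0.12 and 0.17 and a small nucleolar RNA gene, ENSG00000238631, by 0.23 and 0.01. Up to 500 kb away, TCF21, a basic helix-loop-helix transcription factor gene, had signals below the floor on all arrays and differed by -0.03 and 0.27. The probe sets within 500 kb of ZBTB16 were 2 small nuclear and nucleolar RNA genes, with differences from -0.25 to 0.06 at signals below the floor. Most annotated probe sets had no coordinates in the table and are not part of this comparison.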

How the data were processed

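Total RNA of 4 LNCaP cultures was hybridised to Affymetrix arrays, 1 per group, and groups were taken from the labels. Per the submitters' processing notes the authors used Affymetrix Expression Console and RMA, whose versions are not given in the sources used here, and they deposited 1 log2 signal per probe set and array. RMA corrects background, equalises the array distributions and summarises probes, so changes in total RNA are removed and differences of dim probe sets shrink. Precision is limited by the number of arrays. No detection call was used here. Of 33297 probe sets 26722 were annotated. The table gave 2540 of them 1 symbol and 55 several, left unnamed, and 156 more were named by RefSeq accession (GRCh38.p14 gene table, for names). Another 19068 carried only a UCSC identifier.

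Differences were computed between arrays and called at 2-fold. limma 3.58.1 in R 4.3.3 was fitted to all annotated probe sets with hormone and siRNA as terms, without a brightness filter, and p-values were adjusted by Benjamini-Hochberg with a threshold of 0.05. On simulated data of the same size with fitted noise it called 82 of 100 probe sets changed by 1 on the log2 scale and 100 of 100 changed by 2. SGK1, ZBTB16, the gene lists and the rules were chosen with earlier results of these data known, so lists carry no test. The functional classes and the TATAA search were added after seeing the data. Genes named are both members, the measured genes of each list (the brightest probe set of each), the 5 nearest named probe sets by profile, those within 500 kb, and in the functional classes some of those at 2-fold or called, chosen after their values were seen. Alternatives were other scalings, filters, thresholds, prior variances and the deposited value matrix, whose values differed by at most 1.78e-15. Whether the cultures were independent is not stated. The 1 residual degree of freedom is the disagreement of the siRNA arms in their DHT difference, and limma adds a prior variance taken over all fitted probe sets. The p-values therefore do not measure a spread between replicate cultures.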

Additional observations from a re-analysis of the deposited data

Results flagged for a closer look

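With knockdown, SGK1 differed little in vehicle and was lower in DHT. The difference between siPOTEF-AS1 and siControl cells was 0.07 in vehicle and -0.42 in DHT on the log2 scale. In vehicle 70.6% of annotated probe sets differed by at least as much in size, and in DHT 4.61%. The change from 0.07 to -0.42 was not tested, since each is that of 1 pair of arrays, and both vehicle signals were below the brightness floor.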

How the results depend on the processing

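All 10 differences of SGK1 and ZBTB16 kept their direction and their side of 2-fold with median-centred arrays, with quantile normalization repeated, with the intensity trend removed and in the deposited value matrix. SGK1 then ranged from 3.37 to 3.41 with DHT in siControl cells and from 2.80 to 2.89 in siPOTEF-AS1 cells, and its response difference from -0.60 to -0.48, and its knockdown difference in vehicle from 0.07 to 0.13. ZBTB16 ranged from 1.12 to 1.18 and from 1.39 to 1.51, and from 0.21 to 0.37, and in vehicle with knockdown from 0.02 to 0.13 around the reported 0.06. In limma the DHT effect of ZBTB16, 1.30, lost its call over all probe sets of the table (adjusted p 0.0743). It was the only change among 30 refitted values, counted over both genes and over the DHT and knockdown effects. The knockdown values of the 2 genes were not called in any refit. A filter at the 75th percentile left SGK1 out. The number of probe sets called with DHT, 453 higher and 364 lower, moved to 905 and 1080 with the filter at the median, 1046 and 1167 at the 75th percentile, 73 and 26 over the whole table, 32 and 20 over named probe sets, 1056 and 1275 with an intensity trend in the prior, and 922 and 1227 after centring, where limma took the same variance for all probe sets. It was 321 and 204 after quantile normalization. The knockdown count of 0 became 16 higher and 20 lower at the 75th percentile, 0 and 4 with the intensity trend, and 62 and 43 after centring. For these moves the cause was not tested. At 1.5-fold the counts with DHT, 246 higher and 119 lower in siControl cells and 245 and 203 in siPOTEF-AS1 cells, were 710 and 627, and 902 and 1028. By correlation in place of distance, and among the 21 other named probe sets 2-fold apart in both arms in place of 1316, 3 of the 5 probe sets nearest to SGK1 and 2 of the 5 nearest to ZBTB16 were named again. By distance among probe sets whose mean signal reached the floor, 5 and 4 of the 5 were. Each gene had 1 probe set, so no mean over probe sets could be formed. Leaving out an array leaves no residual degree of freedom. No paired analysis was possible because each group had 1 array. The mean-signal set, fitting or counting identical probe sets once, and quantile normalization of the 2-fold counts, were chosen after seeing the data. Signal over background was not known, which limits the vehicle values of SGK1.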
